A study of Sus scrofa with 48 samples.

Results

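The genes described here encode the proteins of the mitochondrial ribosome, in the *longissimus* muscle of pigs from a low and a high residual feed intake (RFI) line. The members are the probes whose symbol starts with MRPL or MRPS followed by a digit. The rule found 83 probes of 58 genes among 60305 distinct probes of a one-colour 60 K pig microarray. Probes above background on fewer than 12 of the 48 arrays were not tested, which left 79 member probes of 56 genes among 42125 tested probes. MRPL39 and MRPS35 had no tested probe, and MRPL4 and MRPS9 each lost 1 of their probes. Of the 79, 53 probes of 35 genes carry large subunit (MRPL) names and 26 probes of 21 genes carry small subunit (MRPS) names.

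RFI is the part of feed intake that growth and maintenance do not account for, so pigs of a low RFI line eat less than predicted. The groups were low RFI pigs on the HF diet (rich in fat and fiber), high RFI pigs on the HF diet, low RFI pigs on the LF diet (poor in fat and fiber) and high RFI pigs on the LF diet, with 12 pigs and 12 arrays in each. All 48 pigs were fed ad libitum, and each array held the RNA of 1 pig. Each line is a single population selected for this trait, so selection and the ancestry of a line cannot be told apart. The ages of the pigs are not given in the labels.

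Mitochondria keep a small genome of their own, and its messenger RNAs are read by a ribosome that sits inside the organelle. The ribosomal RNAs of this particle come from mitochondrial DNA, whereas all of its proteins are made from nuclear genes in the cytosol and imported. The large subunit joins amino acids and holds the exit tunnel, the small subunit reads the message, and the products are core subunits of the respiratory chain and of ATP synthase. Some of the proteins have counterparts in the bacterial ribosome and others were added in mitochondria, and a few are known for work outside the ribosome.

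The arrays were even in quality. The share of spots well above background was between 59.2% and 74.2%, the median processed signal per array between 52.8 and 108 units, and no spot was saturated. The 6 slides held 8 arrays each with 2 of every group, and scanning took 2 days. The lowest correlations with the other arrays, with medians of 0.975 to 0.980, were those of 3 high RFI arrays, 2 on the HF and 1 on the LF diet, and calls lost without these 3 are named with the line comparison. All 10 muscle fibre markers, among them ACTA1, CKM and MYH1, had a probe well above background on 48 arrays. So did markers of other cell types, such as ADIPOQ, PECAM1 and PTPRC, so detection alone does not single out the labelled tissue. Leukocyte markers, present on fewer arrays for some genes (CD79B on 12, CD68 on 28, CSF1R on 35), were measured as well.

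The probes are 60 bases long and the results turn on how probes of one gene compare, so the sequences of the leading genes are given first, from 5′ to 3′ as spotted. MRPL9 was measured with 2 probes, named by the array annotation, that do not overlap, of which the first is shown whole and the second by its first 30 bases. MRPS11 and MRPL21 also had 2 separate probes each, again shown by the first 30 bases. The MRPL15 probe is shown whole as the single probe of a gene lower in the high RFI line.
MRPL9 probe O9386: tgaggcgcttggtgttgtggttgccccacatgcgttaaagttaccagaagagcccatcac
MRPL9 probe A_72_P406268: ttggaattcattggaacaaatggtaaagct
MRPS11 probe O4664: caagggccataactgctccctctgcttaga
MRPS11 probe A_72_P210442: atttgaggagatccccatcgcacacattaa
MRPL21 probe O12769: ccacggtcattgaaaagacagaatcatggc
MRPL21 probe A_72_P073751: cagaggccaggcttcctgcaagagaattgc
MRPL15 probe O10356: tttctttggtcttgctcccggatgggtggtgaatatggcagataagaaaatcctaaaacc

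Other probes of one gene are not separate measurements. For MRPS18C the 2 probes have the same 60 bases, and the first 30 are printed once. For MRPL52 there were 2 pairs: A_72_P478148 and O1715 are alike but for 1 base, and A_72_P028026 and A_72_P651862 share a run of 50 bases shifted by 1. Bases 31 to 60 are printed for these 4 probes. In the first pair the capital marks the substitution A40T (from A_72_P478148 to O1715, counted from 1 at the 5′ end), and in the second pair the capitals mark the part of the shared run that falls in the printed stretch.
MRPS18C probe O13568: ggatcctgcatatctcaaagaccctaaagt
MRPL52 probe A_72_P478148: aagccttttAacagcccatatacagctcag
MRPL52 probe O1715: aagccttttTacagcccatatacagctcag
MRPL52 probe A_72_P028026: AACCAAGTCAATAAAAAGCAactcctgtct
MRPL52 probe A_72_P651862: CAACCAAGTCAATAAAAAGCActcctgtct

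Among the 79 tested probes there were 77 distinct sequences. Of the 37 pairs of tested probes of one gene, 9 shared a run of 30 or more bases, and 6 of those 9 pairs belong to 4 of the 6 MRPL18 probes. The GC content of the member probes ranged from 35.0% to 60%, with a median of 45.0% beside 41.7% for all probes. It was 43.3% at the median for the probes that differed between lines and 45.0% for the others.

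Comparing lines asks which muscle transcripts differ between pigs selected for low and for high RFI. Of the 79 member probes, 17 differed between lines at an adjusted p under 0.05, or 21.5%, beside 16.4% of all tested probes. All 17 were lower in the high RFI line, where 9.85% of all tested probes were called lower and 6.57% higher. They belong to 13 genes, 9 of the large subunit (MRPL9, MRPL52, MRPL21, MRPL15, MRPL17, MRPL46, MRPL48, MRPL2 and MRPL30) and 4 of the small (MRPS11, MRPS18C, MRPS16 and MRPS21). Differences are on the log2 scale, high minus low RFI line averaged over diets, and were tested with limma and Benjamini-Hochberg adjustment over all 42125 probes.

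Most members differed little. The line difference was below 0 for 58 of the 79 probes, with a median of -0.06 and a range from -0.47 to 0.14. The median over all tested probes was -0.03, so these leaned below 0 as well. Values above 0 made up 26.6% of the member probes and 41.8% of all tested probes. The median size of the difference, sign aside, was 0.07 for the members and 0.10 for all tested probes. Member probes were less variable than all tested probes, with a median within-group SD of 0.18 beside 0.26. They were also brighter, with a median centred log2 signal of 2.76 beside -0.44. Whether members differ in spread or in share called from probes of like brightness was not tested. Of the 79, 76 (96.2%) were well above background on all 48 arrays, beside 77.7% of all tested probes. The exceptions were MRPL13 (probe O7891, 33 arrays), MRPL35 (O10094, 18 arrays) and MRPL47 (O8845, 13 arrays).

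**Figure D1:**
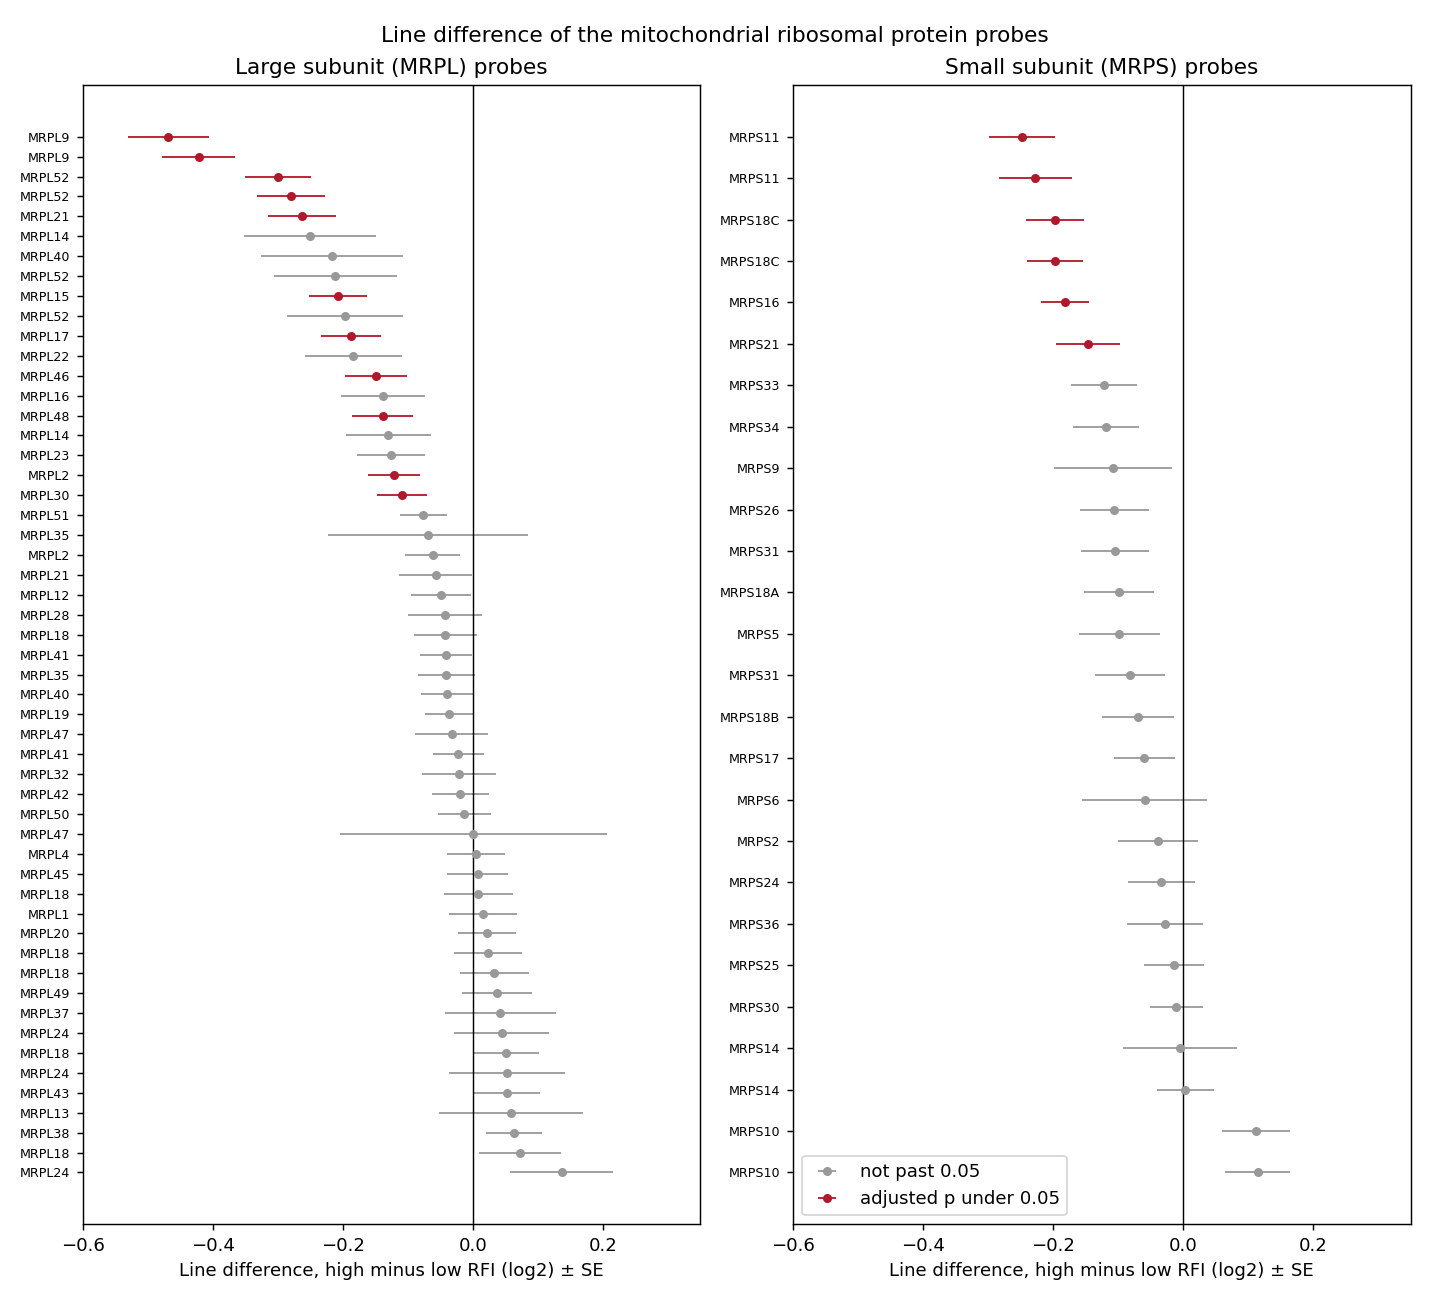
Line difference of each tested member probe (log2, high minus low RFI, x axis; bars are the SE of the fit over 48 pigs), with large subunit (MRPL) names on the left, small subunit (MRPS) names on the right and genes with several probes repeated. The 17 red probes, past an adjusted p of 0.05, all lie below 0, and MRPL9 stands at the far end with -0.47 and -0.42.

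MRPL9, a large subunit protein with a bacterial counterpart, showed the largest line difference of the members. At probe O9386, centred log2 signals of the 12 low RFI pigs on the LF diet ran from 2.37 through a median of 2.66 to 3.01, and those of the high RFI pigs on that diet ran from 1.85 through 2.28 to 2.63. On the HF diet the low RFI pigs ran from 2.29 through 2.67 to 2.88 and the high RFI pigs from 1.87 through 2.1 to 2.67. The ranges overlapped on both diets, yet 16 of the 24 high RFI pigs lay below every low RFI pig and 11 of the 24 low RFI pigs lay above every high RFI pig. The mean was 2.65 ± 0.19 (SD, n = 24) in the low and 2.18 ± 0.24 (SD, n = 24) in the high RFI line, so the signal was 27.7% lower in the high RFI line, with a log2 difference of -0.47 (SE 0.06, limma adjusted p = 1.01e-06).

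The second MRPL9 probe, which does not overlap the first and is assigned to MRPL9 by the array annotation alone, gave a similar difference. Its match to the pig transcript was not tested. At A_72_P406268 the low RFI line averaged 4.86 ± 0.14 and the high RFI line 4.44 ± 0.23 (SD, n = 24 each), a log2 difference of -0.42 (SE 0.06, limma adjusted p = 8.65e-07). Here 18 of the 24 high RFI pigs lay below every low RFI pig. On the HF diet 2 high RFI pigs stood away from their group, at 2.67 and 2.56 against 2.20 for the next at O9386, and the same 2 pigs were highest at the second probe, at 4.95 and 4.75 against 4.41. Within slides, where 4 high and 4 low RFI pigs were compared, the O9386 difference was below 0 on each of the 6 slides, from -0.81 to -0.15.

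**Figure D2:**
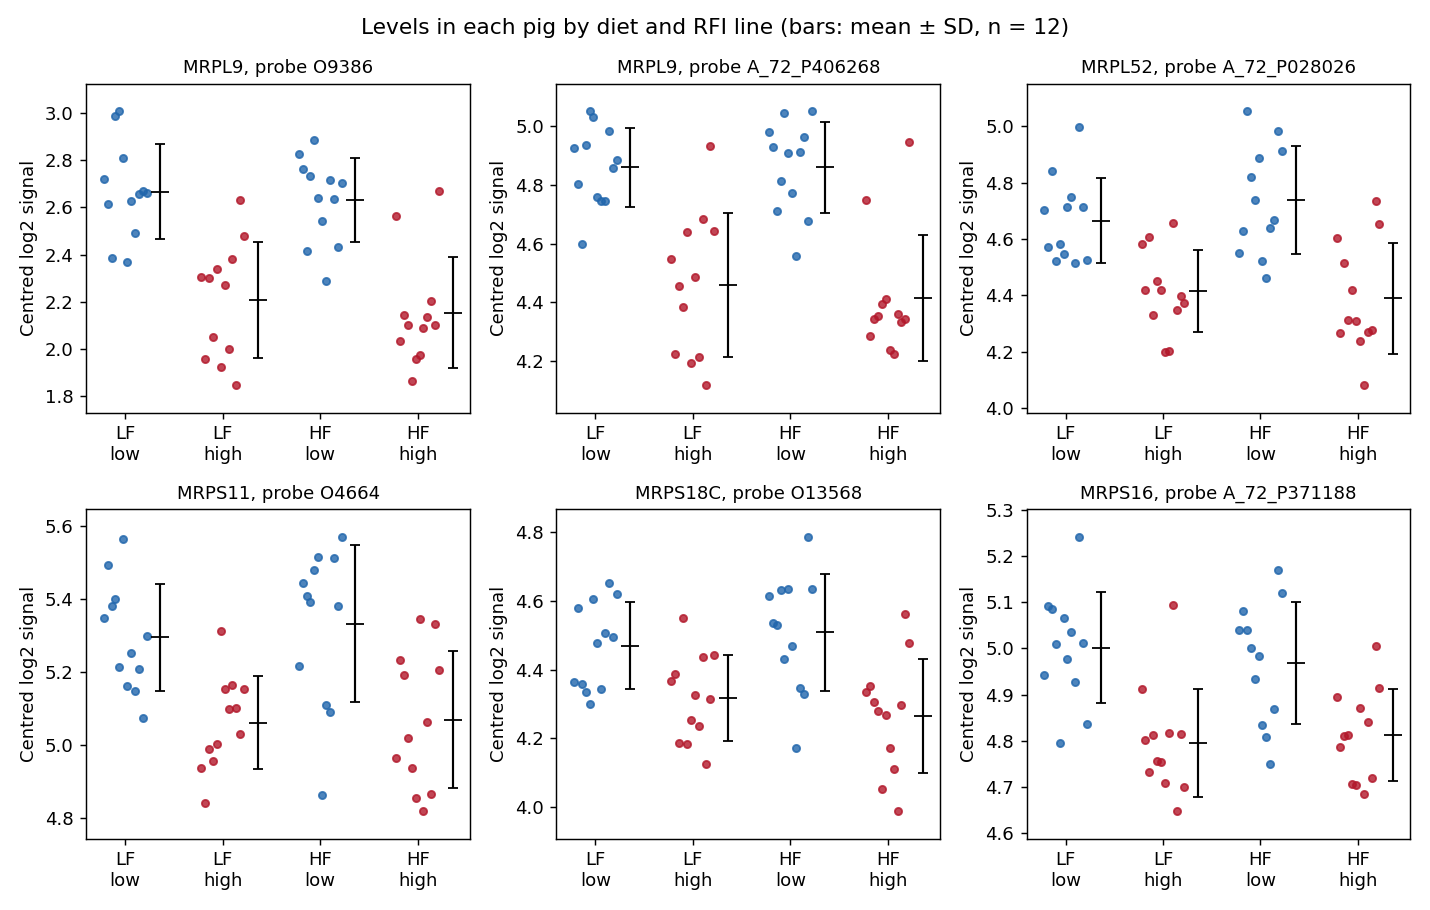
Centred log2 signal (y axis) of each pig by diet and RFI line (x axis; blue low, red high RFI; bars show mean ± SD, n = 12) for 6 member probes lower in the high RFI line. MRPL9 on the HF diet overlaps between lines mainly through 2 high RFI pigs, and the other genes overlap more.

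MRPL52, a large subunit protein without a bacterial counterpart, was the gene with the most probes all pointing one way. At A_72_P028026 the low RFI pigs ran from 4.46 through a median of 4.69 to 5.05 and the high RFI pigs from 4.08 through 4.39 to 4.74 (n = 24 each). All 24 low RFI pigs lay above the mean of the high RFI line, and 1 high RFI pig lay above the mean of the low RFI line. The log2 difference was -0.30 (SE 0.05, limma adjusted p = 6.15e-05), and its near copy A_72_P651862 gave -0.28 (limma adjusted p = 0.000203). The other pair of MRPL52 probes gave -0.21 and -0.20 with limma adjusted p of 0.116 and 0.123. Their spread was wider, with an SD of 0.40 and 0.37 in the low RFI line against 0.17 at each of the first pair. Their differences did not pass the threshold in limma.

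MRPL21, a large subunit protein with a bacterial counterpart, depended on the probe. The low RFI pigs ran from 2.64 through 2.99 to 3.26 at O12769 and the high RFI pigs from 2.28 through 2.72 to 3.11, a log2 difference of -0.26 (SE 0.05, limma adjusted p = 0.000529). At A_72_P073751 the difference was -0.06 (SE 0.06, limma adjusted p = 0.519), with 12 of 24 high RFI pigs above the mean of the low RFI line. Whether the 2 probes read different transcripts was not tested. MRPL2, which lies at the catalytic core of the large subunit, showed the same kind of split, with -0.12 at O13390 (limma adjusted p = 0.0303) and -0.06 at A_72_P432134 (limma adjusted p = 0.327).

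MRPS11, a small subunit protein with a bacterial counterpart, had 2 separate probes that both fell. At O4664 the low RFI pigs ran from 4.86 through 5.36 to 5.57 and the high RFI pigs from 4.82 through 5.05 to 5.34, with a log2 difference of -0.25 (SE 0.05, limma adjusted p = 0.000691). The second probe gave -0.23 (limma adjusted p = 0.00403). The lines overlapped over most of their range at both probes, although 23 of 24 low RFI pigs were above the high RFI mean at the first. MRPL9 and MRPS11 were the 2 genes with separate probes that were all called.

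MRPS18C belongs to a family of 3 related proteins in mammals, of which it was the one called between lines. MRPS18C fell by 0.20 at each of its identical probes (limma adjusted p = 0.00139 and 0.00184), with low RFI pigs at O13568 from 4.17 through 4.50 to 4.78 and high RFI pigs from 3.99 through 4.30 to 4.56. The agreement of the 2 probes is that of repeated spots of one sequence. MRPS18A had a difference of -0.10 (SE 0.05, limma adjusted p = 0.203) and MRPS18B one of -0.07 (SE 0.05, limma adjusted p = 0.407). Whether the 3 genes differed from each other was not tested. In the assembled particle MRPS18A lies in the large subunit, despite its name.

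Single probes stood for the other genes lower in the high RFI line. MRPL15, a core protein of the large subunit, averaged 3.61 ± 0.11 in the low and 3.40 ± 0.18 in the high RFI line, a log2 difference of -0.21 (SE 0.04, limma adjusted p = 0.00121). MRPS16, a small subunit protein in which mutations cause a human respiratory chain disorder, averaged 4.99 ± 0.12 and 4.80 ± 0.11, a log2 difference of -0.18 (SE 0.04, limma adjusted p = 0.000557). For both genes the ranges overlapped, with 4 high RFI pigs above the low RFI mean for MRPL15 and 2 for MRPS16. MRPL17, close to the tunnel exit, fell by 0.19 (limma adjusted p = 0.00394).

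The smallest differences that passed the threshold were less secure. MRPL46 fell by 0.15 (limma adjusted p = 0.0256), MRPS21 by 0.15 (0.0332), MRPL48 by 0.14 (0.0356) and MRPL2 by 0.12 (0.0303), and MRPL30, outside the rule for named genes and added after its value was seen, fell by 0.11 (0.0452). MRPL46 and MRPL48 were added to the ribosome in mitochondria, whereas MRPS21, MRPL2 and MRPL30 have bacterial counterparts. Without the 3 least correlated arrays these 5 probes were not called, with limma adjusted p from 0.0536 to 0.0917, and the other 12 were called. The same 5 were also lost without the filter on dim probes and after another background correction. With quantile scaling MRPL48, MRPL2, MRPS21 and MRPL30 were lost, with limma adjusted p from 0.0558 to 0.164. MRPL30 was lost as well with 75th percentile scaling, with the filter on all 48 arrays and in the deposited table.

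Other members known for separate roles did not pass the test. MRPL12, which also binds the mitochondrial RNA polymerase, had a difference of -0.05 (SE 0.05, limma adjusted p = 0.493; 1 low RFI pig has no value). MRPL23, a neighbour of the imprinted IGF2 and H19 genes in mammals, had one of -0.13 (SE 0.05, limma adjusted p = 0.0882). MRPL14, at the face between the subunits, had -0.25 and -0.13 at its 2 probes (limma adjusted p = 0.0802 and 0.167). MRPS30, which sits in the large subunit, had -0.01, and MRPS36, now known as a part of the oxoglutarate dehydrogenase complex, had -0.03 (limma adjusted p = 0.896 and 0.786). The sign of the MRPS30 and MRPS36 values turned under some settings.

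Where a gene had several probes, they mostly lay on one side of 0. Of the 16 genes with 2 or more tested probes, 13 had all probes on one side and 3 (MRPL18, MRPL47 and MRPS14) on both. In all, 42 of the 56 genes had every probe below 0 and 11 every probe above 0. The 6 MRPL18 probes ranged from -0.04 (O13015) to 0.07 (A_72_P737455), 2 probes that share no run of over 5 bases with any other MRPL18 probe, and the 4 overlapping ones lay between 0.01 and 0.05. The highest values, named after they were seen, were those of MRPL24 at 0.14 (limma adjusted p = 0.235) and of MRPS10 at 0.11 at each of 2 probes (limma adjusted p = 0.103 and 0.129). MRPS10 was called higher in the high RFI line, at 1 or both probes, under 4 other settings of scaling, background correction or filter, with a difference of 0.12 to 0.14 and limma adjusted p of 0.0324 to 0.0469.

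Calls were spread over genes named for both subunits. Of the 53 probes with large subunit names 11 were called, or 20.8%, with a median of -0.04. Of the 26 with small subunit names 6 were called, or 23.1%, with a median of -0.09, beside 16.4% of all tested probes. The split is by name, so MRPS18A, MRPS30 and MRPS36 are counted with the small subunit names. Values above 0 were found for 3 of the 26 probes with small subunit names and 18 of the 53 with large subunit names, beside 41.8% of all tested probes. Averaged over its 79 probes, the level of a pig ran from 2.43 through a median of 2.64 to 2.73 in the low RFI line and from 2.39 through 2.55 to 2.72 in the high RFI line. These ranges cover each other almost wholly, while the means were 2.623 ± 0.082 in the low and 2.545 ± 0.084 in the high RFI line (SD, n = 24 each). The difference between these averages was not tested.

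Line differences were next read on each diet, which hold different pigs. On the HF diet 10 of the 79 member probes were called, or 12.7%, beside 6.39% of all tested probes, and on the LF diet 6 were called, or 7.59%, beside 2.47%. All of these were lower in the high RFI line. Of all tested probes, 4.03% were called lower and 2.36% higher on the HF diet, and 1.34% lower and 1.13% higher on the LF diet. These counts depended on the settings, with 5 and 2 called on the HF and LF diet after normexp background correction and 4 and 2 without the filter on dim probes. The 4 probes called on both diets were the 2 of MRPL9, 1 of MRPL52 and 1 of MRPL21. MRPL9 at O9386 differed by -0.48 on the HF and -0.46 on the LF diet (limma adjusted p = 0.00137 and 0.00185), and MRPL52 at A_72_P028026 by -0.35 and -0.25 (limma adjusted p = 0.00353 and 0.048).

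Some genes passed on 1 diet and not on the other. MRPS11 (O4664), MRPS18C, MRPL17 and MRPL22 were called on the HF diet and MRPL15 and MRPS16 on the LF diet. MRPL22, which lines the exit tunnel, was the single gene called on the HF diet and not over both diets. Its HF values ran from -0.36 through 0.05 to 0.38 in the low and from -0.73 through -0.35 to 0.21 in the high RFI line, a difference of -0.33 (SE 0.10, limma adjusted p = 0.0475). On the LF diet both medians were -0.14 and the difference was -0.04 (SE 0.10, limma adjusted p = 0.902). The change of the MRPL22 line difference with diet did not pass the threshold (interaction -0.29, SE 0.15, limma p = 0.0538 and adjusted p = 0.999).

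**Figure D3:**
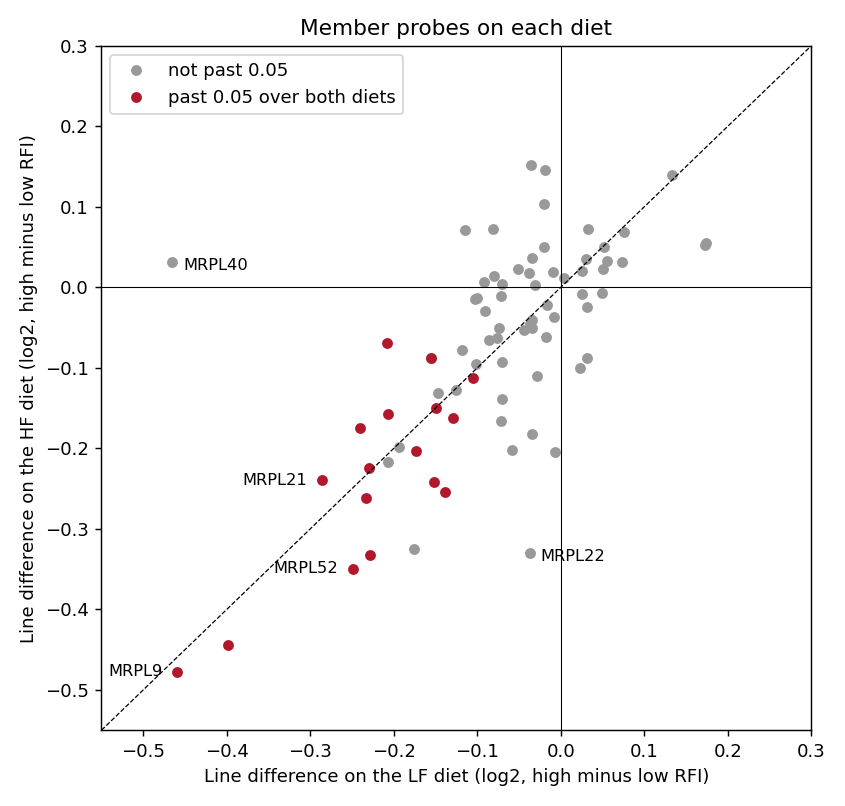
Line difference (log2, high minus low RFI) of each of the 79 member probes on the LF diet (x axis) and the HF diet (y axis), with the dashed line of equal differences and the 17 probes called over both diets in red. The red probes lie to the lower left of 0, and MRPL40 and MRPL22 lie far from the dashed line.

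No member probe, and none of the 42125 tested probes, passed the threshold in the line by diet interaction with limma. At an unadjusted p under 0.05 there was 1 of 79 member probes, or 1.27%, beside 4.45% of all tested probes. It was MRPL40 (A_72_P153326), named after its value was seen, with a line difference of 0.03 on the HF and -0.47 on the LF diet (interaction 0.50, SE 0.22, limma p = 0.0281 and adjusted p = 0.999). Across probes, 59 of 79 members, or 74.7%, had the same sign of line difference on both diets, beside 70.6% of all tested probes. Of the 59, 47 were below 0 on both. These 47 are 59.5% of the members, beside 42.65% of all tested probes. The correlation of the 2 differences across the 79 probes was r = 0.67, and across all tested probes r = 0.63, where probes of one array share its scaling and are not independent.

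Comparing diets asks whether the HF diet altered these transcripts. Averaged over lines, 2 of the 79 member probes were called between diets, or 2.53%, beside 0.42% of all tested probes, and both were lower on the HF diet, where 0.245% of all tested probes were called lower and 0.176% higher. MRPL35 has a bacterial counterpart in the large subunit. At its probe A_72_P315623, low RFI pigs ran from 0.35 through 0.54 to 0.88 on the LF and from 0.11 through 0.34 to 0.53 on the HF diet, and high RFI pigs from 0.26 through 0.46 to 0.77 and from 0.18 through 0.33 to 0.60. The HF pigs had lower medians in both lines with overlapping ranges, and the log2 difference was -0.18 (SE 0.04, limma adjusted p = 0.0392).

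MRPL4, which reaches into the exit tunnel, showed a difference of like size. At A_72_P428349 low RFI pigs ran from 3.67 through 3.92 to 4.10 on the LF and from 3.30 through 3.74 to 3.99 on the HF diet, and high RFI pigs from 3.75 through 3.94 to 4.15 and from 3.64 through 3.69 to 3.97. The diets overlapped in both lines, and the difference was -0.18 (SE 0.05, limma adjusted p = 0.0471). Neither call was firm, since both genes lay just past the threshold in limma and were lost under several other settings, MRPL35 with adjusted p of up to 0.466 and MRPL4 of up to 0.243. The other MRPL35 probe, which was well above background on 18 arrays, had a diet difference of -0.12 (SE 0.15, limma adjusted p = 0.817).

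**Figure D4:**
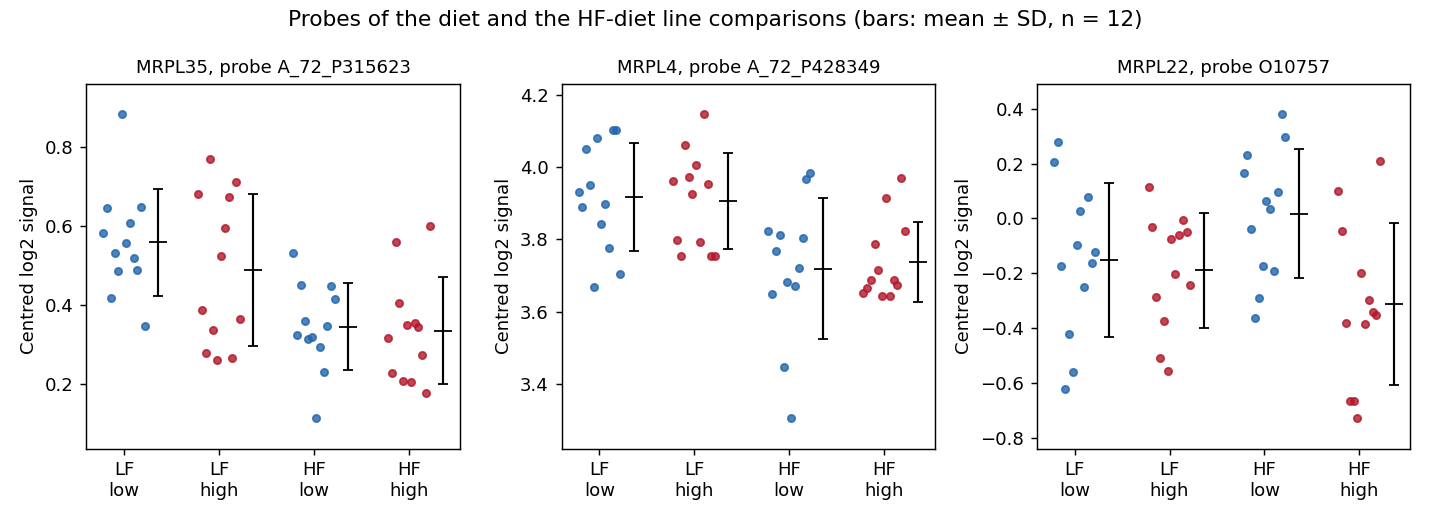
Centred log2 signal (y axis) of each pig by diet and RFI line (x axis; blue low, red high RFI; bars show mean ± SD, n = 12) for the MRPL35 and MRPL4 probes called between diets and the MRPL22 probe called between lines on the HF diet. Both HF groups sit lower than the LF groups for MRPL35 and MRPL4, and MRPL22 medians of the lines are 0.05 and -0.35 on the HF diet and both -0.14 on the LF diet.

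Within a single line no member was called between diets. In the low RFI line 0 of 79 member probes passed with limma, 4 had an unadjusted p under 0.05 (5.06%, beside 11.6% of all tested probes), and 0.199% of all tested probes were called, 0.0878% lower and 0.112% higher on the HF diet. In the high RFI line 0 members and 0 of all tested probes passed, with 2 members at an unadjusted p under 0.05 (2.53%, beside 5.47% of all tested probes). The median diet difference over the members was -0.01, with 33 of 79 above 0, or 41.8%, beside 50.8% of all tested probes.

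Other genes of mitochondrial translation were read beside the members. Of all tested probes 9.85% were called lower and 6.57% higher. Of 9 probes of 5 genes for ribosomal proteins with other names, 3, or 33.3%, were called lower and 0 higher in high RFI pigs. The largest of these was GADD45GIP1, a large subunit protein at the tunnel exit, at -0.23 (limma adjusted p = 0.00123), and PTCD3, a small subunit protein that binds RNA, was at -0.17 (0.0276) at 1 probe and at -0.01, not called, at the other. ICT1 was at -0.13 (limma adjusted p = 0.04998) at 1 probe and at 0.007, not called, at the other. Among 25 probes of 13 translation factor genes 2, or 8%, were lower, 1 of SLIRP, which keeps mitochondrial messages stable with LRPPRC, and 1 of MTRF1, a release factor. The SLIRP probes were at -0.21 and, not called, -0.07, and the 6 MTRF1 probes ran from -0.21 to 0.15 with a median of 0.08. Among 24 probes of 14 mitochondrial aminoacyl-tRNA synthetase and related genes 20.8% were called. Of these, 3 were lower, the single NARS2 probe at -0.48 and 2 of 4 GATC probes (from -0.15 to -0.09 over the 4). The 2 higher ones were both of FARS2, at 0.23 and 0.24.

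Genes that build the ribosome moved in both directions, with 34.8% of their probes called beside 16.4% of all tested probes. Of 23 probes of 14 assembly genes 6 were higher and 2 lower in high RFI pigs, 4 of the higher ones being all MTERFD1 probes (0.33 to 0.37) and the others the single probes of MRM1 (0.29) and NGRN (0.22). TFB1M, which methylates the small subunit RNA, was lower at 2 of 3 probes, which ran from -0.27 to 0.01. None of 12 probes for replication and transcription of mitochondrial DNA was called with limma. Of 13 probes for regulators of mitochondrial biogenesis 38.5% were called. All 4 MYC probes were higher (0.50 to 0.62), and 1 of 2 YY1 probes was lower, at -0.16 and -0.10 for the 2.

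The products of the mitochondrial ribosome were on the array too. Among 129 probes of mitochondrially encoded genes 37, or 28.7%, were called lower and 0 higher in the high RFI line, with a median of -0.12 and every probe below 0. Of all tested probes 9.85% were called lower and 6.57% higher. ND6 was at -0.29 (limma adjusted p = 0.015) at 1 probe and at -0.12 (limma adjusted p = 0.188) at the other. Of 65 probes of complex I, which joins nuclear and mitochondrial subunits, 9 were lower and 1 higher with a median of -0.07. In either direction 15.4% of these probes were called, near the 16.4% of all tested probes. The single NDUFV3 probe was at -0.22 and both NDUFB11 probes were lower, at -0.21 and -0.16, whereas the 4 NDUFB9 probes disagreed, from -0.20 to 0.39 with 1 called lower and 1 higher. Of 149 probes of complexes II to V 28 were lower and 7 higher, 23.5% in either direction, with a median of -0.04. All 3 COX7C probes were lower (-0.24 to -0.17), 6 of 8 COX6A1 probes were higher (0.14 to 0.22 over the 8), and UQCRB was lower at 7 of 8 probes (lowest -0.18) and higher at the other (0.48).

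Cytosolic ribosomal proteins, the parallel set that builds the ribosome outside mitochondria, differed more often. Of 289 probes 217, or 75.1%, were called lower and 0 higher in the high RFI line, with a median of -0.15 beside -0.06 for the mitochondrial set. Of all tested probes 9.85% were called lower. RPL6 was lower at 14 of 15 probes (-0.62 to -0.11 over the 15) and RPL14 at 7 of 7 (-0.61 to -0.36), whereas RPL38 was at -1.91 (limma adjusted p = 1.99e-08) at 1 probe and at -0.09 (limma adjusted p = 0.212) at the other. For RPL6 the paper's quantitative PCR, over a larger set of pigs from several experiments, found no significant line difference. Those levels were scaled to reference genes and not to the array mean, and why the 2 measures differ was not tested. Whether the mitochondrial and cytosolic sets differ beyond these counts was not tested, and many probes of the cytosolic set can share sequence with processed copies.

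**Figure D5:**
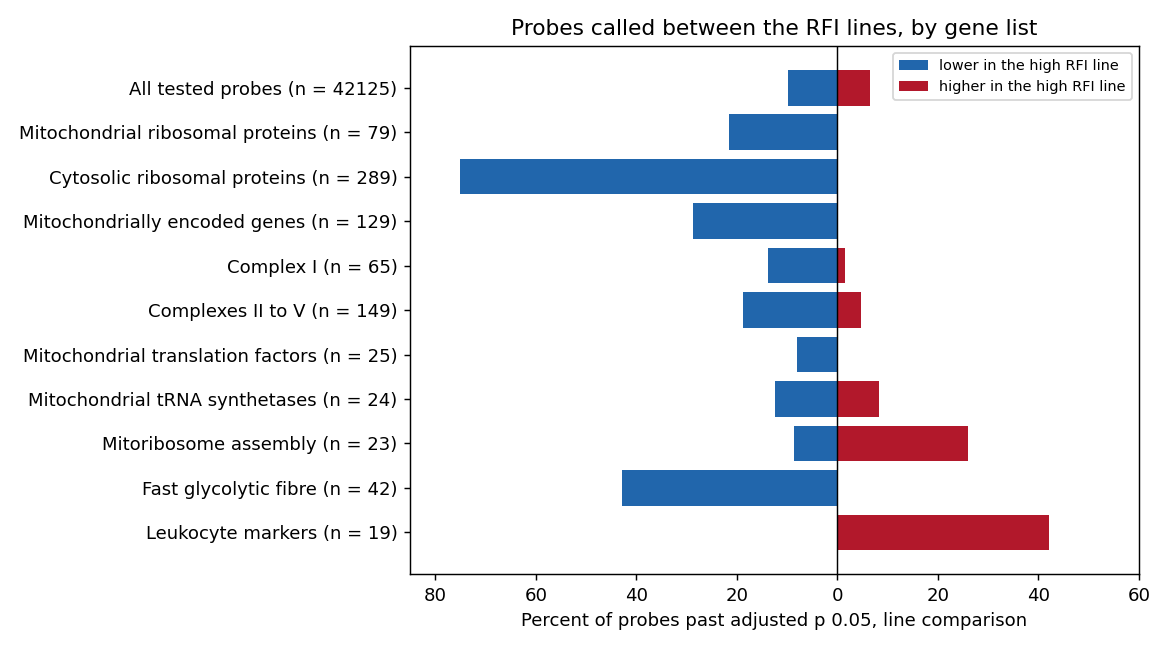
Percent of probes past an adjusted p of 0.05 in the line comparison (x axis, lower to the left of 0 and higher to the right) for all tested probes and 10 gene lists (y axis, number of probes in brackets). The mitochondrial ribosomal proteins have 21.5% lower and none higher, the cytosolic set 75.1% lower, and assembly genes and leukocyte markers lean to the right.

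Markers of cell types were called between the lines to differing extents. Of all tested probes 16.4% were called, 6.57% higher and 9.85% lower. Of 19 leukocyte probes of 8 genes, 8, or 42.1%, were higher in high RFI pigs and 0 lower, with a median of 0.44. The calls were in AIF1, CD14, CD163, CD79B and CSF1R, with the single CSF1R probe at 0.94 and 1 of 6 CD163 probes called (0.44 to 0.64 over the 6). No probe of PTPRC (-0.03 to 0.32), CD3E (-0.14 and -0.05) or CD68 (0.40) was called. The mean over the leukocyte list ran from -2.27 to -0.61 in low and from -1.88 to 0.07 in high RFI pigs. Of 30 adipocyte probes of 7 genes 8, or 26.7%, were higher, all of FABP4, with list means from -1.32 to 0.67 and from -1.15 to 0.94. The adipocyte median was 0.20 over both diets, 0.44 on the HF diet (29 of 30 probes above 0) and -0.16 on the LF diet (10 of 30 above 0), with none called on either diet by limma. Of 26 fibroblast probes of 6 genes 4, or 15.4%, were higher (2 of 2 COL1A1 and 2 of 4 COL1A2 probes), with list means from 2.33 to 3.15 and from 2.35 to 3.19. Of 17 endothelial probes of 6 genes 2, or 11.8%, were higher (2 of 4 TEK probes). Both shares lay below the 16.4% of all tested probes called in either direction and above the 6.57% called higher. No blood probe of 4 was called with limma.

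Fibre markers moved the other way in part. Of 42 probes of 7 fast glycolytic fibre genes 18, or 42.9%, were lower in high RFI pigs and 0 higher, beside 9.85% of all tested probes called lower. Their median was -0.13, and 3 of 5 ATP2A1 probes (-0.31 to 0.09 over the 5) and 3 of 5 MYLPF probes (-0.29 to -0.09) were among the 18. The list means ran from 8.46 to 8.86 in low and from 8.19 to 8.65 in high RFI pigs. Of 50 slow fibre probes of 7 genes 1, or 2%, was higher (1 of 21 ATP2A2 probes) and 0 lower, beside 6.57% of all tested probes called higher. The part of these cell type differences in the lower levels of MRPL9 and the other members was not tested. In whole muscle, fewer cells of a type and less RNA per cell cannot be told apart.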

How the data were processed

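RNA of *longissimus* muscle from 48 pigs was hybridised to one-colour arrays. The authors deposited spot intensities, made per the file headers with Agilent Feature Extraction 10.7.3.1, and a table of log2 values (R 2.10.0 in the submitters' processing notes), which equals log2 median intensity per spot less the array median, tested on the file. Control and outlier spots were left out. Processed signals were put on the log2 scale and each array's mean over tested probes was subtracted. The methods also subtract each pig's mean, but over annotated probes of a merged set of several experiments, a set not used here. So the members' levels are relative and a level of one probe is not comparable with that of another. Groups were fitted with limma 3.58.1 in R 4.3.3 as 4 means sharing one spread, with Benjamini-Hochberg adjustment over 42125 probes and a threshold of 0.05. The fit was tested on simulated data. Of the tested values 169 were missing, 1 of them in a member probe (MRPL12). Precision is limited by 12 pigs a group.

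Named genes are, per gene, the probe with the largest called line difference of one sign on both diets (12 genes), genes called in the other comparisons, genes with 3 or more probes of one sign and at least as many called as not, 15 genes fixed by name (9 of them with a tested member probe) and up to 4 called genes of each other list. The members and lists were chosen with earlier results of these data known. Symbols came from the array files and a RefSeq gene table (Sscrofa11.1), which holds 57 of the 58 member symbols. Genome positions were not analysed here. Alternatives were the 75th percentile and quantile scaling, normexp (offset 50), the filter, outlier spots, slide, scan day, the deposited table, averaging over probes of a gene, a variance analysis with line as the only term, and, added after seeing the data, leaving out the 3 least correlated arrays. The methods describe such a variance analysis for quantitative PCR levels of chosen genes, whereas here it was run on array probes.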

Additional observations from a re-analysis of the deposited data

How the results depend on the processing

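The number of member probes called between lines stayed within 1.5 times of 17, from 12 to 20, under every alternative with adjusted p. It was 29, or 36.7%, beside 30.8% of all tested probes, in a variance analysis with line as the only term and no adjustment. It was 12 without the filter on dim probes and without the 3 least correlated arrays, 13 of 56 genes when the probes of a gene were averaged, and 20 with the slide as a block. The called direction was lower, except for MRPS10, called higher under 4 alternatives with adjusted p, and for 2 of the 29 probes in the analysis without adjustment. The median line difference ran from -0.06 to -0.02 over these settings, and with normexp it was -0.025 beside -0.019 for all tested probes. Within single slides it ran from -0.12 to -0.02, and on slides 4 and 5 it was -0.019 and -0.040 beside -0.026 and -0.044 for all tested probes. On the HF diet the count of 10 became 5 with normexp correction, 4 without the filter and 6 with probes of a gene averaged, and on the LF diet the count of 6 became 2, 2 and 3. Between diets the count of 2 became 0 with the 75th percentile, quantile scaling, normexp, no filter and without the 3 arrays, and 1 with the deposited table and with averaged probes. The cause of these changes was not tested, except that without the filter more probes were tested and with averaging fewer. The MRPS36 line difference reversed to 0.0049 with normexp and 0.016 without the 3 arrays, and that of MRPS30 to 0.0025 with normexp and 0.0026 with the filter on all 48 arrays. Of 416 recomputations of 38 named differences, 346 kept their direction and side of the threshold, 61 lost the call, 5 gained one and 4 reversed. Outlier spots, scan day and slide kept 38, 38 and 37 of the 38 the same and so say little about stability. Each slide held 2 arrays of every group, so slide and scan day could change the spread but barely the differences, and outlier spots were few. Of the 38 named differences, 16 stayed the same under every alternative. With normexp 21 stayed the same, and without the filter on dim probes 23 did. No paired analysis was possible because the labels give every pig the same replicate number. Precision is limited by the number of arrays and, for MRPL13, MRPL35 (O10094) and MRPL47 (O8845), by signals near background.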
